A study of Mus musculus with 8 samples.

Results

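The 7 mouse genes that encode the KMT2 and SETD1 proteins, Kmt2a, Kmt2b, Kmt2c, Kmt2d, Kmt2e, Setd1a and Setd1b, were examined for binding of the transcription factor ZFP281 among 21887 protein-coding genes. They were chosen by the presence and score of their ZFP281 summits in these same lists, as a family whose leading members carried very high scores. The presence, number and score of their summits in tumour and early lesion spheres are therefore given as a description, without a test. A summit was assigned to a gene when it lay in the gene or within 20 kb of either end. The farthest summit inside this limit lay 17.1 kb from Kmt2b, and the nearest outside it 21.8 kb from Kmt2d. ZFP281, a zinc finger protein known from the control of pluripotency, was immunoprecipitated with its chromatin from spheres of MMTV-HER2/Neu mice on the FvB background, in which the MMTV promoter drives the HER2/Neu oncogene in mammary epithelium. Primary tumour (PT) spheres came from tumours of animals older than 20 weeks, and early lesion (EL) spheres from mammary glands of animals aged 14 to 18 weeks with no tumour that could be felt. Cells of both groups, labelled as breast cancer cells, had been kept for 7 days in mammosphere medium without attachment, and the EL samples carry the tissue label mammary lung. Each group had 3 ZFP281 libraries and 1 input, and the inputs were not analysed here. Summit lists hold no expression values, so the labelled cell type could not be checked against markers.

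KMT2A and KMT2B, also called MLL1 and MLL2, are large SET-domain enzymes that add methyl groups to lysine 4 of histone H3, mainly at promoters of developmental genes, in complexes that contain menin. KMT2C and KMT2D (MLL3 and MLL4) act mainly at enhancers, and SETD1A and SETD1B add most of the trimethylation of the same lysine at active promoters. KMT2E (MLL5) carries a divergent SET domain and a PHD finger that reads trimethylated lysine 4, and is not an established histone methyltransferase. The active enzymes share the core subunits WDR5, RBBP5, ASH2L and DPY30, the mammalian form of the yeast COMPASS complex.

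The lists were of unequal length. That of PT replicate 1 was the shortest, and PT replicates 2 and 3 had 4030 and 6033 summits, against 8588, 15770 and 7055 in EL replicates 1, 2 and 3. A percentile or rank below is that of the deposited score within a library's own list. A percentile of the same region tended to be lower in the shorter PT lists, with a median difference of -10.5 percentile points, PT minus EL, over the 1573 regions found in all 6 libraries. Lists cut by score to the length of the shortest one were used beside the full lists and are called equal lists.

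Every one of the 7 genes had a ZFP281 summit in the gene or within 20 kb in all 6 libraries. Of all protein-coding genes, 13.0% did. The members are longer than most genes, with a median length of 42.4 kb against 17.2 kb over all protein-coding genes, and a longer gene offers a wider window. Within 1 kb of a gene boundary, a rule on which length has no such bearing, Kmt2a, Kmt2b, Kmt2c, Kmt2e and Setd1a had a summit in all 6 libraries, against 4.39% of all genes. At equal list lengths the 20 kb rule held for 5 genes, all but Kmt2d and Setd1a, with a background of 8.76%, and the 1 kb rule for Kmt2a, Kmt2b, Kmt2c and Kmt2e, with a background of 2.99%. No member had summits in every PT and no EL library, or in every EL and no PT library, under either rule. Of all genes, 0.206% and 5.19% fell in these classes within 20 kb, or 1.42% and 1.64% at equal list lengths. Within 1 kb of a boundary the shares were 0.0457% and 1.94%, or 0.338% and 0.379% at equal list lengths. The members were picked with these values known, so nothing further is read from the counts.

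The 7 genes had 13, 14 and 14 summits in PT replicates 1, 2 and 3, and 17, 23 and 16 in EL replicates 1, 2 and 3. The EL libraries thus all held more, with the highest number in the longest list. Means were 13.7 ± 0.577 in PT and 18.7 ± 3.79 in EL (SD, n = 3 each). At equal list lengths the order turned, with 13, 12 and 11 summits in PT replicates 1, 2 and 3, and 9, 10 and 11 in EL replicates 1, 2 and 3. The plot of summit numbers shows which genes carry the EL surplus of the full lists, mainly Kmt2e and Setd1b.

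**Figure D1:**
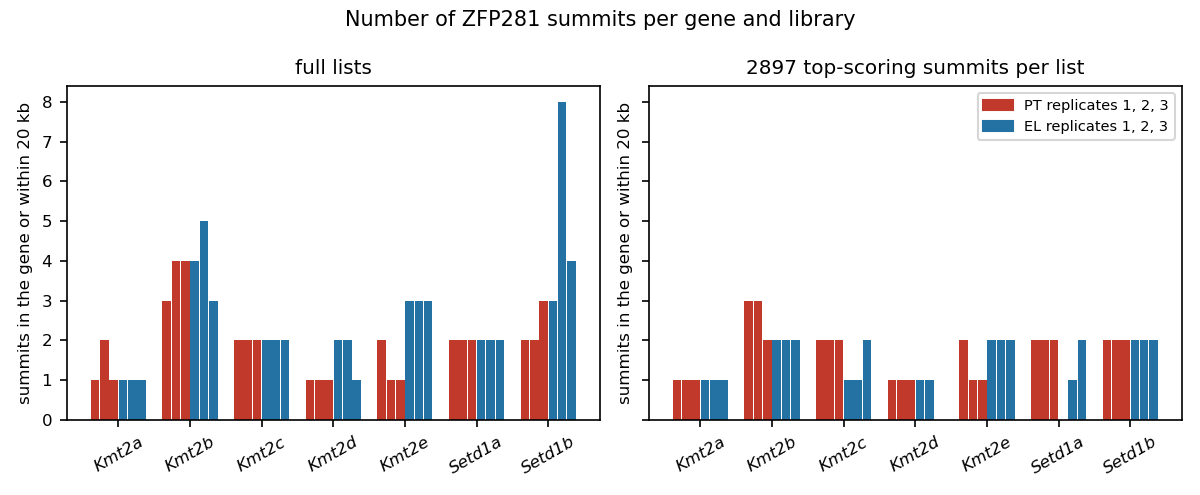
Number of ZFP281 summits (vertical axis) in each gene or within 20 kb of it, in full lists (left) and in equal lists (right). Each bar is 1 library, with PT replicates 1 to 3 in red left of EL replicates 1 to 3 in blue. Setd1b has up to 8 summits in EL replicate 2 in the full list and 2 in every library at equal lengths.

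Kmt2a, the gene rearranged in MLL leukaemias, carried the highest-scoring summit of the whole list in 4 of the 6 libraries. Its rank was 1, 1 and 13 in PT replicates 1, 2 and 3, and 1, 1 and 2 in EL replicates 1, 2 and 3. The scores behind these ranks were 240.0, 256.2 and 140.5 in the PT libraries and 251.6, 380.6 and 165.0 in the EL libraries. The groups overlapped in rank and in score. The top place in PT replicate 3 belonged to a summit near Sumo3, the gene of a small ubiquitin-like modifier. All 6 Kmt2a summits fell in 1 region on chromosome 9 from 44881434 to 44881513 (mm10), outside the upper gene boundary and inside the lncRNA gene Gm39326. They lay 82, 119 and 132 bp beyond that boundary in PT replicates 1, 2 and 3, and 161, 116 and 117 bp in EL replicates 1, 2 and 3, which is 145 to 224 bp upstream of the start site in the RefSeq promoter table. Apart from this region, the locus had 1 summit, at the opposite end of the gene in PT replicate 2, with a percentile of 12.2. The region thus stood alone within 20 kb in the other 5 libraries.

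The stretch upstream of Kmt2a that holds all 6 summits is printed from the RefSeq table of GRCm38.p6 promoters (chr9:44881353-44881539, minus strand, 187 bases, 77.0% G or C), because it is the place of the highest score in 4 lists. Capitals mark GGGCGGG, the core of the GC box, on either strand, and would also mark GGGAGGG or GGGGAGGGG, the G-rich letters for which ZFP281 is known, had they been present.
Kmt2a: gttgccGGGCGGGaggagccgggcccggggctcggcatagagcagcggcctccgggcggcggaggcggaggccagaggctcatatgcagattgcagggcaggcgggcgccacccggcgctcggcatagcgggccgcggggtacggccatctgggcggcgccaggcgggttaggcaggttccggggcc
The single GC box core of this stretch lies 17 bp, centre to summit, from the nearest summit, that of EL replicate 1 at 44881513. The summits of the other libraries, from 44881434 to 44881484, lie farther from it. The whole window of 300 bases holds 3 GC box cores and neither G-rich form.

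Kmt2b had the same kind of region in its upper end, again among the highest ranks of every list. Kmt2b encodes the closest relative of KMT2A. The region, on chromosome 7 from 30588750 to 30588785, lay inside the gene, 271 to 306 bp from the upper boundary, and reached the lncRNA gene Gm32082. Its rank was 14, 27 and 6 in PT replicates 1, 2 and 3, and 21, 19 and 11 in EL replicates 1, 2 and 3, so the groups overlapped. Zbtb32, a zinc finger gene, has its lower boundary within 1 kb of the same region, so the summit cannot be assigned to Kmt2b alone.

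At a second Kmt2b region neither the percentiles nor the positions of PT and EL overlapped. Positions of the groups did not overlap in 10.6% of the 1573 shared regions, so that separation is not particular to this region. It lay 5659 to 5747 bp below the lower gene boundary, on chromosome 7 from 30563108 to 30563196, inside Psenen, the gene of a gamma-secretase subunit, and upstream of U2af1l4, a splicing factor gene. Percentiles were 51.1, 57.1 and 78.7 in PT replicates 1, 2 and 3, and 97.8, 98.03 and 97.8 in EL replicates 1, 2 and 3. Every EL library thus ranked the region above every PT library, and all 6 kept it at equal list lengths. The difference of means was -35.6 percentile points, PT minus EL, and 12.0% of the 1573 shared regions had a lower one. Percentiles of the outer Kmt2c region, described below, did not overlap either. The share of all shared regions whose percentiles do not overlap was not computed, so the separation is not read as particular to this region.

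PT summits lay 5687, 5659 and 5685 bp and EL summits 5736, 5718 and 5747 bp below the Kmt2b boundary, in replicates 1, 2 and 3 of each group. These are 144 to 172 bp in PT and 203 to 232 bp in EL upstream of the RefSeq start of U2af1l4. Means differed by 56.7 bp, PT minus EL, on the plus strand, with SDs of 15.6 bp in PT and 14.6 bp in EL (n = 3 each; exact permutation test, two-sided, p = 0.1, the smallest possible, adjusted p = 0.9 over 10 regions). The letters under the summits of each group are shown from the RefSeq promoter table (GRCm38.p6, plus strand), the PT span being chr7:30563168-30563196 and the EL span chr7:30563108-30563137.
U2af1l4 upstream, PT span: gcaccccaccccctccgctacgttgtacg
U2af1l4 upstream, EL span: cgcagttttcagtggagtttgttgtcgctt
The PT span is 69.0% and the EL span 46.7% G or C, and neither holds a marked motif.

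Lesser Kmt2b regions were a region 9001 to 9086 bp below the lower boundary, found in all EL libraries and in PT replicates 1 and 2 with percentiles between 13.2 and 39.6, and 3 regions of 2 libraries each. At equal list lengths the first of these remained in 2 PT libraries and no EL library, and the other 3 in none. The one inside Hspb6, a small heat shock protein gene, was found in EL replicates 1 and 2, at percentiles of 24.9 and 67.7. The one inside Zbtb32 was found in PT replicates 2 and 3, at percentiles of 7.68 and 5.31, and the third in PT replicate 3 and EL replicate 2, at percentiles of 41.1 and 20.4.

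**Figure D2:**
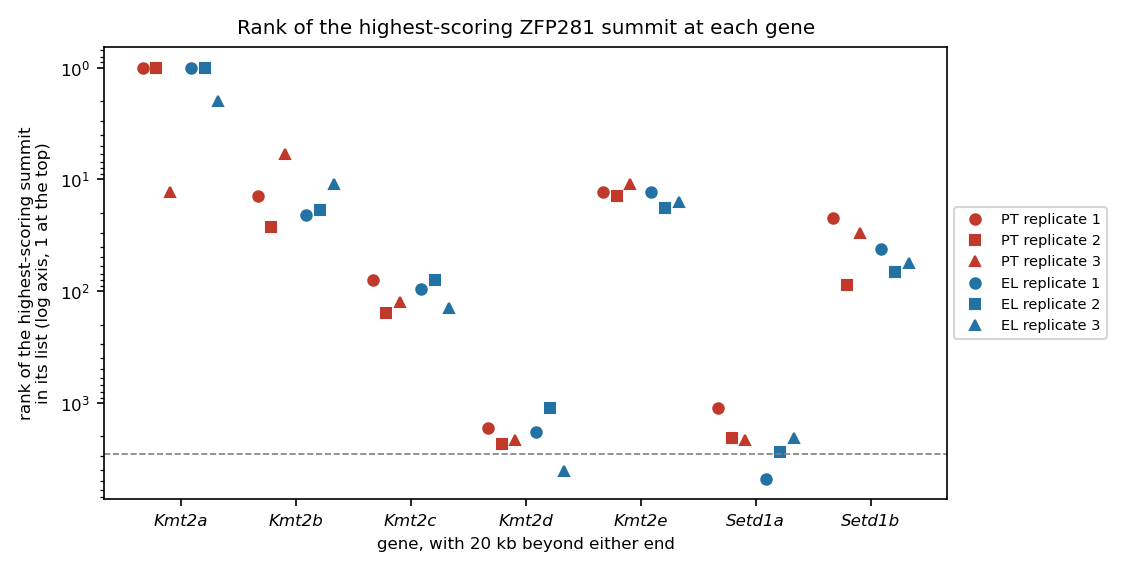
Rank of the highest-scoring summit at each gene within its own list (vertical log axis, rank 1 at the top), for PT replicates 1 to 3 (red) left of EL replicates 1 to 3 (blue). The dashed line marks the length of the equal lists. Kmt2a, Kmt2b and Kmt2e lie at rank 27 or better in every library, and Kmt2d and Setd1a at rank 1108 or worse.

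Kmt2c, whose product works mainly at enhancers and whose human counterpart is often mutated in breast cancer, had a pair of regions on either side of its upper end. The outer region, on chromosome 5 from 25499637 to 25499716, lay 782 to 861 bp beyond the boundary. It ranked 79, 159 and 126 in PT replicates 1, 2 and 3, and 97, 80 and 143 in EL replicates 1, 2 and 3, and the groups overlapped in rank. In percentiles they did not, with 97.29, 96.05 and 97.93 in the PT libraries and 98.88, 99.50 and 97.99 in the EL libraries. The inner region, 762 to 1012 bp inside the gene, was weaker, at percentiles of 44.9, 82.4 and 65.8 in PT replicates 1, 2 and 3, against 49.1, 77.3 and 72.9 in EL replicates 1, 2 and 3. At equal list lengths it remained in all 3 PT libraries and in 1 EL library, the outer one in all 6. The rest of the gene, 227 kb long, and the 20 kb beyond its far end held no summit in any list.

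The outer Kmt2c region lies in the promoter window of the lncRNA gene 4831440E17Rik, 81 to 160 bp upstream of its start. That window is printed first (chr5:25499547-25499796, plus strand, 250 bases) and the stretch upstream of Kmt2c second (chr5:25498856-25499033, minus strand, 178 bases), both from the RefSeq table of GRCm38.p6, to set a bound window beside an adjacent one without a summit. Capitals mark GGGGAGGGG, GGGAGGG or GGGCGGG on either strand, overlapping matches being run together.
4831440E17Rik: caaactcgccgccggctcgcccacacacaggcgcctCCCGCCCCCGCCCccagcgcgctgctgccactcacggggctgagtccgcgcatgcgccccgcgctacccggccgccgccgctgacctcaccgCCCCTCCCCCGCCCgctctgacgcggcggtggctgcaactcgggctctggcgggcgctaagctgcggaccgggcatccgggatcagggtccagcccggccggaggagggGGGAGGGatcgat
Kmt2c: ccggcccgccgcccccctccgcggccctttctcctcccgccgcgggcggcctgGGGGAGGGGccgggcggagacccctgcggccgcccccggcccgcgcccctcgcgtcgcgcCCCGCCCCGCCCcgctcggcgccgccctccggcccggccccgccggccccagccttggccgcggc
In the lncRNA window the 9-letter form, at 25499675 to 25499683, has its centre 2 bp from the nearest summit. A GC box core at 25499682 to 25499688 is equally close to its nearest summit. The summits of all libraries range from 25499637 to 25499716. The Kmt2c stretch holds the same 9 letters and no summit of any library.

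Kmt2d, the gene of the closest relative of KMT2C, had weaker and more scattered binding. Its region of all 6 libraries lay inside the gene, 1649 to 2076 bp from the upper boundary, on chromosome 15 from 98872001 to 98872428. Percentiles were 40.9, 39.9 and 63.6 in PT replicates 1, 2 and 3, and 78.6, 92.9 and 41.7 in EL replicates 1, 2 and 3. The groups overlapped through EL replicate 3, which lost the summit at equal list lengths. The other Kmt2d summits, 1 each in EL replicates 1 and 2, had percentiles of 43.1 and 38.5.

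Kmt2e had a leading region at its lower end with little spread between libraries. The region, on chromosome 5 from 23432893 to 23432972, lay 64 to 143 bp outside the gene and inside the lncRNA gene 5031425E22Rik. Its rank was 13, 14 and 11 in PT replicates 1, 2 and 3, and 13, 18 and 16 in EL replicates 1, 2 and 3. PT summits lay 131, 133 and 140 bp from the boundary in replicates 1, 2 and 3, and EL summits 138, 143 and 64 bp, so EL replicate 3 stood apart from the other 5.

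Further Kmt2e regions were found mostly in EL. One of them, 1180 to 1319 bp inside the lower end, had a percentile of 67.6 in PT replicate 1 and no summit in PT replicates 2 and 3, against percentiles of 97.7, 96.97 and 92.3 in EL replicates 1, 2 and 3. The presence in 1 PT library and 3 EL libraries was the same at equal list lengths. Another, 1622 to 1658 bp inside the upper end, was found in all 3 EL libraries alone, at percentiles of 40.4, 77.7 and 50.5, and in no library at equal list lengths. Its EL summits hold ranks from 3397 to 5004, and that of rank 3397 is the nearest outside the equal lists, while the last inside them, of rank 2792, lies at Setd1a in EL replicate 2.

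**Figure D3:**
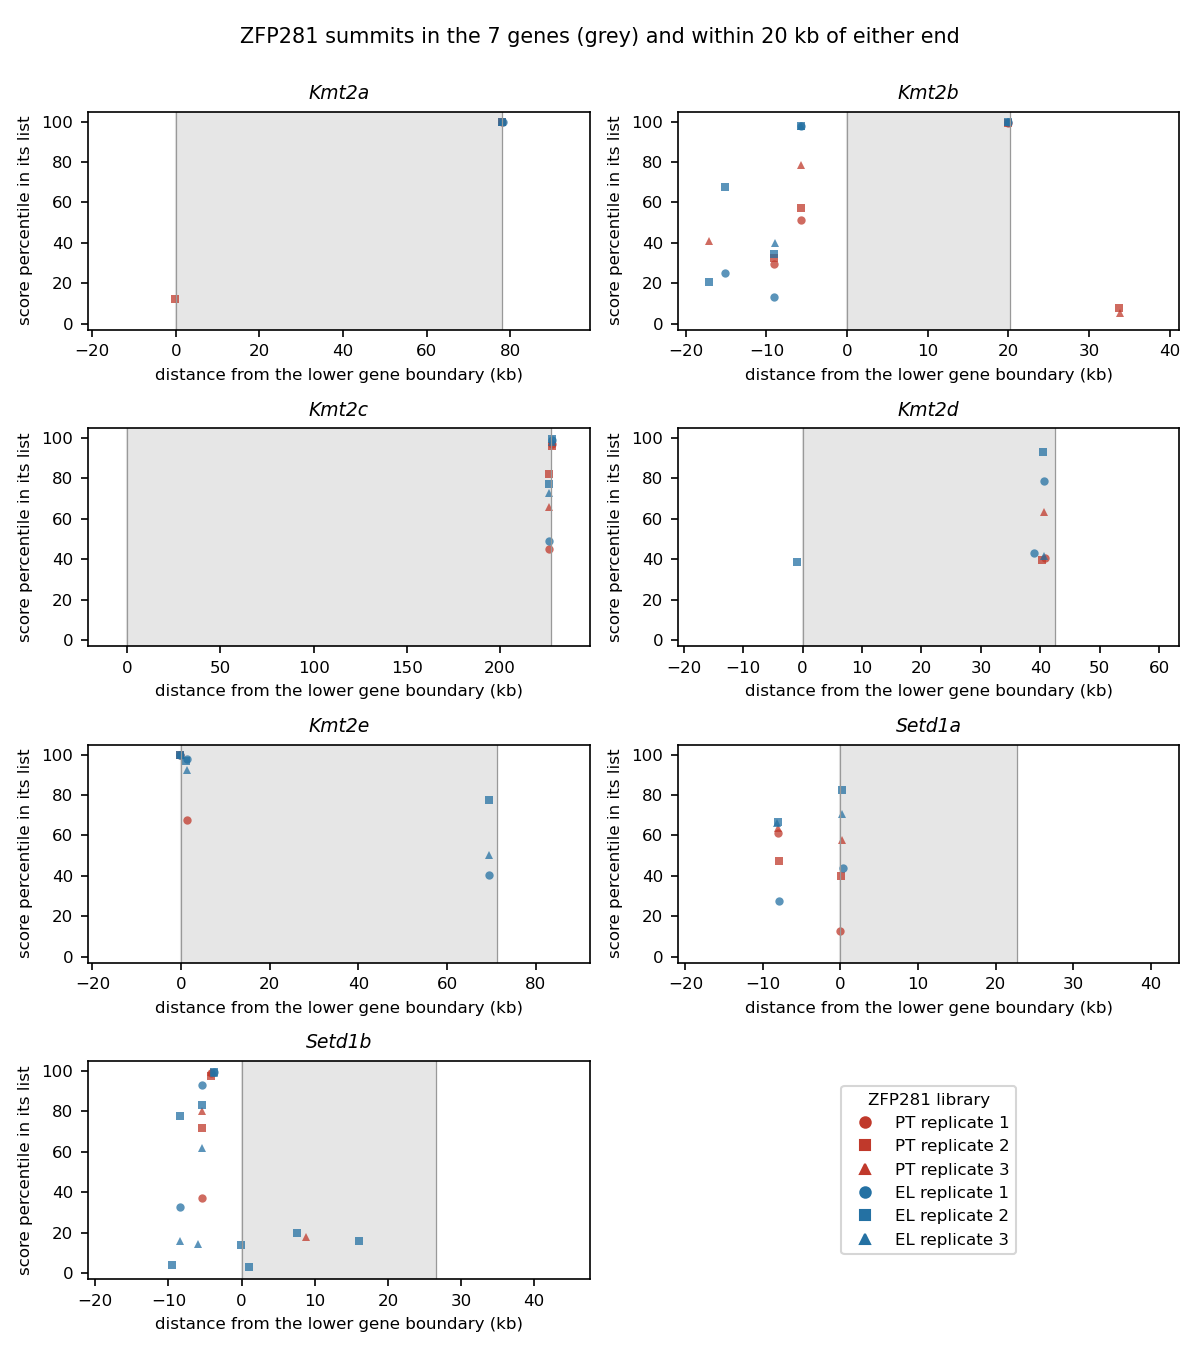
Score percentile of each ZFP281 summit in its list (vertical axis) against its distance from the lower gene boundary in kb (horizontal axis), 1 panel per gene, the gene body in grey. Red marks PT and blue EL replicates 1 (circle), 2 (square) and 3 (triangle). The leading summits of Kmt2a, Kmt2b, Kmt2c and Kmt2e sit at 1 end of the gene and those of Setd1b about 4 kb outside it.

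Setd1a had middling summits in all 6 libraries at its start and upstream. At the start, on chromosome 7 from 127777295 to 127777763, percentiles were 12.5, 39.9 and 57.7 in PT replicates 1, 2 and 3, and 43.9, 82.3 and 70.4 in EL replicates 1, 2 and 3. The groups overlapped. The summits were spread over 468 bp, and 0.254% of the 1573 shared regions had a wider range. About 8 kb upstream, inside Fbxl19, a gene of a CpG-binding F-box protein, the percentiles were 61.0, 47.2 and 63.6 in PT replicates 1, 2 and 3, and 27.3, 66.4 and 66.2 in EL replicates 1, 2 and 3. At equal list lengths the start region remained in 3 PT and 2 EL libraries and the upstream one in 3 PT and 1 EL libraries.

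The Setd1a promoter is shown as the weakly bound counterpart of Kmt2a (RefSeq, GRCm38.p6, chr7:127777139-127777388, plus strand, 250 bases, 70.4% G or C). It holds the summit of PT replicate 1, 94 bp upstream of the start, while the other 5 lie inside the gene. No capitals appear because none of the motifs was found.
Setd1a: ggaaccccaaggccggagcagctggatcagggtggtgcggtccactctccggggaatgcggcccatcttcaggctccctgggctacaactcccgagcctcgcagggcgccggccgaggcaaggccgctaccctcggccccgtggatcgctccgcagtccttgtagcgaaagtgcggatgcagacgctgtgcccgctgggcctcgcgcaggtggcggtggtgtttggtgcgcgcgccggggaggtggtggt

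Setd1b had its leading summits outside the gene, at places that differed between the groups. In PT they lay 4218, 4238 and 4203 bp below the lower boundary in replicates 1, 2 and 3, and in EL 3771, 3790 and 3772 bp below it in replicates 1, 2 and 3. The PT positions span 35 bp and the EL positions 19 bp, and a gap of 413 bp without a summit in any list separates them. Both places rank high, at 22, 89 and 30 in PT replicates 1, 2 and 3, and at 42, 68 and 56 in EL replicates 1, 2 and 3. They lie on chromosome 5, from 123137802 to 123137837 in PT and from 123138250 to 123138269 in EL, inside the annotated Rhof gene, which encodes a small GTPase.

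At a merging distance of 200 bp these were a PT-only and an EL-only region. Of all 136 PT-only regions, 7 (5.15%) lay within 500 bp of an EL-only region. When summits up to 500 bp apart were merged they became 1 region of all 6 libraries, with mean positions of -4220 ± 17.6 bp in PT and -3778 ± 10.7 bp in EL, counted from the boundary (SD, n = 3 each). Of the 1685 regions that then held all 6 libraries, 5 (0.297%) had PT and EL positions apart by at least as much. Of the 39 among them whose every percentile was at least the 97.8 found here, Setd1b was the only such region. A gap wider than 500 bp would mostly have split a region in this merging, so the counts cover a narrow range of gaps. Both limits, the gap and the percentile, were those of Setd1b itself. This locus was singled out after its values were seen, so no test is given and no rarity is read from the counts. The lists hold no peak widths, and whether the PT and EL peaks overlapped was not tested.

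**Figure D4:**
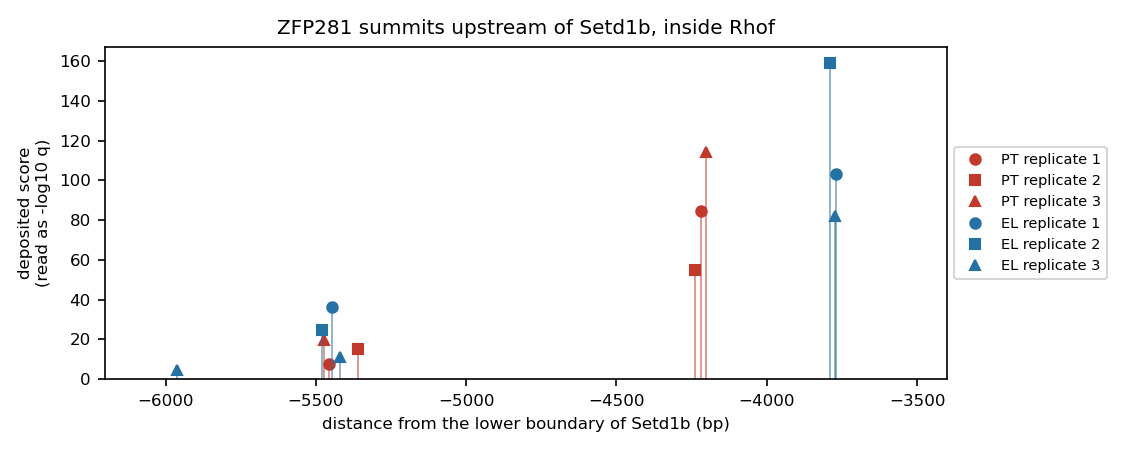
Deposited score of each summit (vertical axis, read as −log10 of a q-value) against its distance from the lower boundary of Setd1b in bp (horizontal axis), for PT (red) and EL (blue) replicates 1 to 3. The 3 PT summits near -4220 bp and the 3 EL summits near -3778 bp do not mix, while those 5358 to 5480 bp below the boundary do.

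Farther out, 5358 to 5480 bp below the boundary, a Setd1b region of all 6 libraries showed no such separation. Its percentiles were 37.0, 71.6 and 80.0 in PT replicates 1, 2 and 3, and 93.1, 83.1 and 61.9 in EL replicates 1, 2 and 3. A region 8367 to 8453 bp below the boundary was found in the 3 EL libraries alone, at percentiles of 32.6, 77.7 and 15.8, and in none at equal list lengths. The gene body held single summits, 1 of PT replicate 3 and 3 of EL replicate 2, at percentiles between 2.85 and 19.7.

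Over all 7 genes, 29 regions were found, of which 10 held all 6 libraries, 1 all 3 PT and no EL library, 3 all 3 EL and no PT library, and 10 a single library. Among all 19317 regions the same classes made up 8.14%, 0.704%, 10% and 47.0%. The 10 shared regions allowed a test of summit position, which played no part in the choice of genes. PT and EL positions did not overlap in 1 of the 10, the Kmt2b region in Psenen, and in 10.6% of the 1573 shared regions, so the members' share is near the background. Differences of the other 9, PT minus EL, ranged from -177.3 bp at the start of Setd1a to 34.3 bp upstream of it (exact permutation test, two-sided, p between 0.3 and 0.9, adjusted p = 0.9 each, n = 3 per group). Among these 10 regions the strongest summits were placed most narrowly, as the plot of positions shows. The 6 positions spanned 35 bp at the upper end of Kmt2b and 79 bp at Kmt2a, Kmt2e and the outer Kmt2c region, but 427 bp at Kmt2d, with a median of 99 bp over all shared regions and 58 bp over the 53 whose every percentile was at least 97. The leading Setd1b summits, also strong, are split at this merging distance and not among the 10. Their PT and EL positions have a gap of 413 bp.

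**Figure D5:**
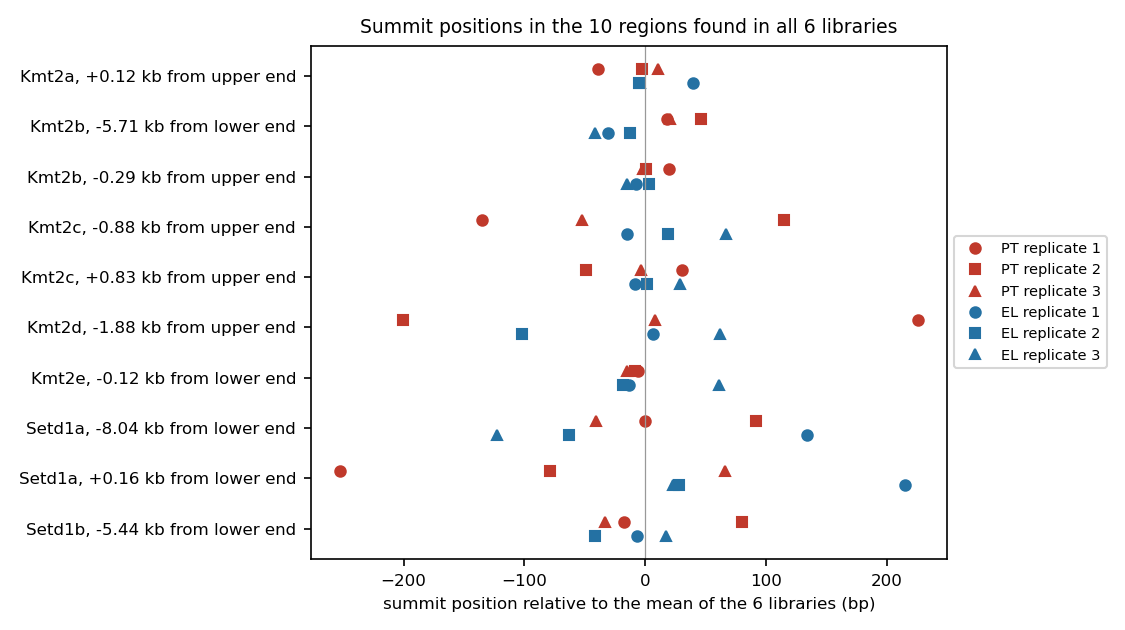
Summit position in each library relative to the mean of the 6 libraries in bp (horizontal axis), for the 10 regions of the 7 genes found in all 6 libraries, with PT (red) above EL (blue) in each row. PT and EL separate in the Kmt2b region inside Psenen, and the widest spreads are those of Kmt2d and the start of Setd1a.

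The letters GGGGAGGGG or their complement CCCCTCCCC stood within 250 bases before the start site in 5.75% of 32851 RefSeq promoter windows, GGGAGGG or CCCTCCC in 19.7%, and GGGCGGG or CCCGCCC in 23.4%. The 9-letter form contains the 7-letter one. Of the 303 windows that held a summit of all 6 libraries, among them those of Kmt2a and 4831440E17Rik, 57.1%, 70.6% and 58.7% had the letters. Those windows were also richer in G and C, with a median of 67.2% against 52.4% over all windows, and the part of composition was not tested. Among the members, the window of Kmt2c held the 9 letters, and those of Kmt2a, Kmt2d and Setd1a did not.

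Partners and counterparts of the family were described by the same boundary rule. Their lists were chosen with earlier results of these data known, so no enrichment is read from their counts. Of 45 related genes in 5 lists, 10 (22.2%) had a summit within 1 kb of a boundary in all 6 libraries, against the 4.39% of all genes. None was bound in every PT and no EL library, with a background of 0.0457%. Only Nsd1, a methyltransferase of another histone H3 lysine, was bound in every EL and no PT library, with a background of 1.94%. At equal list lengths 8 of the 45 were bound in all 6 libraries, with a background of 2.99%, and Nsd1 kept its summit in 2 EL libraries. Of the COMPASS core, no gene had a boundary summit in all 6 libraries, and Wdr5, Ash2l and Dpy30 had none at a boundary in any. Within 20 kb, Dpy30 had a summit in all 6 libraries, as did 13.0% of all genes. Rbbp5 and Ash2l each had one in 1 EL library, and Wdr5 had none.

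Among 12 complex-specific subunits and partners, Ncoa6 and Psip1 were bound in all 6 libraries, with lowest percentiles of 75.7 and 72.4. NCOA6 is a coactivator in the KMT2C and KMT2D complexes, and PSIP1 tethers the KMT2A and menin complex to chromatin. Hcfc2 had a boundary summit in 2 PT and 3 EL libraries, and 7 of the 12 had none. Of 6 enzymes that remove methyl groups from the same lysine, Kdm5b and Kdm5c were bound in all 6 libraries, at percentiles of 37.0, 63.9 and 82.3 in PT replicates 1, 2 and 3 against 92.0, 94.2 and 52.7 in EL replicates 1, 2 and 3 for Kdm5b. For Kdm5c they were 14.5, 34.4 and 72.7 in the PT libraries and 71.6, 87.6 and 70.4 in the EL libraries.

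Other SET-domain genes bound in all 6 libraries were Ash1l and Setd7 of a list of 7, with lowest percentiles of 8.97 and 7.72. Of 16 genes for methyltransferases of other histone lysines, Setd2, Dot1l, Setdb1 and Ezh2 were bound in all 6, with lowest percentiles of 97.6, 79.2, 61.0 and 22.3. Setd2, the gene of an enzyme that methylates another histone H3 lysine within transcribed genes, had the highest lowest percentile of the related genes, above that of Kmt2c and below those of Kmt2a, Kmt2b and Kmt2e. Its values were 97.6, 98.5 and 98.8 in PT replicates 1, 2 and 3, and 99.2, 99.8 and 99.1 in EL replicates 1, 2 and 3.

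A boundary summit in all 6 libraries was found for 960 genes. Ordered by their lowest percentile, Kmt2a was number 2, Kmt2e number 5, Kmt2b number 6, Kmt2c number 46 and Setd1a number 846. A percentile of at least 99 in every library was reached by 13 of all genes (0.0594%), 3 of them members. Likeness was measured as the mean absolute difference in percentile over the 6 libraries, with 3 genes named per member. Kmt2a was nearest to Sumo3, Chd3 and Pcbp1, at 0.103 to 0.162 percentile points. Kmt2b was nearest to Kmt2e, at 0.102 points, and then to Chd3 and Zfat, leaving out Zbtb32, whose boundary summit is the same one. Kmt2e was nearest to Chd3, at 0.0980 points, and then equally to Kmt2b and Zbtb32, which share a region. Kmt2c came nearest to Ddx5 and Cep95, at 0.404 points each, and to Nedd4, at 0.455 points, while Setd1a had no gene nearer than Mllt3 at 6.11 points, followed by Rpl5 and Gimap9. Near the top of every list such differences are bound to be small.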

How the data were processed

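Per the labels' protocols, ZFP281 chromatin immunoprecipitation libraries of 3 PT and 3 EL sphere cultures were sequenced as paired reads of 150 bp. Bowtie2 2.3.4.3, Picard and build mm10 are named in the submitters' processing notes. Which peak caller ran, and how the 2 inputs served, is not given in the sources used. For every library the authors deposited a summit list of single positions and scores. These deposited scores were taken to be −log10 q-values, because the smallest value per list ranges between 1.303 and 1.551, no lower than 1.30, which is −log10 of 0.05. That reading comes from the values. No read counts come with the lists, so depth is unknown and no value was scaled by it.

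Only summits of chromosomes 1 to 19, X or Y were kept, positions were made 1-based, and each score was given a rank and a percentile within its own list. Neighbouring summits within 200 bp of each other, whatever their library, formed a region. The 21887 protein-coding genes were those of RefSeq on GRCm38.p6, the mm10 build, and start sites came from the matching RefSeq table of promoter windows, which holds Kmt2a, Kmt2c, Kmt2d and Setd1a of the 7 genes. The gene table gives no strand, so a boundary is called lower or upper by its coordinate. A percentage of called genes or regions was computed for each rule as background.

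Summit positions within shared regions were compared between 3 PT and 3 EL libraries by an exact permutation test (two-sided, 20 relabellings, smallest p 0.1) with Benjamini-Hochberg adjustment over 10 regions, so no such test could pass 0.05. The steps were tested on simulated summits. The libraries are labelled as biological replicates without naming animals, so p-values measure the spread between these samples only. No pair of lists shared more than 81 positions. Members, related gene lists and tests were chosen with earlier results of these data known. All 7 members are named. Of each related list, up to 4 genes with a boundary summit in all 6 libraries, and up to 4 with one in every library of 1 group and none of the other, are named in order of their lowest percentile, along with the 3 genes most like each member. Hcfc2, the 4 COMPASS core genes and the Setd1b positions were named after their values were seen. Alternatives were equal list lengths, scores of at least 5 and 10, other windows and merging distances, mean positions, each library left out and a replicate block. Python 3.11.15, pandas 2.3.3, numpy 2.4.6 and scipy 1.17.1 were used.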

Additional observations from a re-analysis of the deposited data

How the results depend on the processing

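The surplus of summits at the 7 genes in EL depended on list length. The difference of means, PT minus EL, was -5 summits in full lists and 2 at equal list lengths, where its direction reversed, and -0.667 within 1 kb of a gene boundary. With a library left out it lay between -6.33 and -2.83, the smallest size being that without EL replicate 2, and it stayed negative with scores of at least 5 and 10, a window of 5 kb and gene bodies alone. The number of genes with a summit in all 6 libraries was 7, with 3 in gene bodies alone (fewer positions counted) and 5 to 7 in the other alternatives. The number of shared regions whose PT and EL positions did not overlap was 1 of 10, with 2 of 11 at merging distances of 500 and 1000 bp, where the Setd1b summits joined, and between 1 and 2 of 9 to 11 with a library left out. Of all shared regions, 11.2% and 11.7% did not overlap at 500 and 1000 bp, and 18.8% to 22.4% with a library left out. It was 2 without PT replicate 2 or 3 or EL replicate 1 or 2, which added the inner Kmt2c region, the start of Setd1a, the upstream Setd1a region and the upper Kmt2b region in that order.

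Position differences that changed sign did so only when a library was left out, with ranges of -117.2 to 7.83 bp and -33.5 to 6 bp for the inner and outer Kmt2c regions, -85.2 to 128.3 bp for Kmt2d, -33.7 to 5.83 bp for Kmt2e, -18.5 to 110.0 bp for the upstream Setd1a region and -15.3 to 41.7 bp for the Setd1b region of all 6 libraries. At a merging distance of 50 bp and at equal list lengths some regions were no longer found in every library and gave no value, nor did Kmt2d without EL replicate 2 or 3, so that its range rests on 4 omissions, or the start of Setd1a without PT replicate 2. None had passed a test, and the cause was not tested. With replicate numbers as pairs (replicate block), 1 region had all 3 pairs moving one way, the same number as without the block. Deviations of same-numbered libraries correlated at 0.0623, -0.0325 and -0.0117 over 1573 regions, and those of different-numbered libraries between -0.0898 and 0.102. No pairing by number showed in this measure. Whether same-numbered libraries shared a preparation cannot be told from it. Depth is unknown, and a region absent from a list may lie below its threshold.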
